A study of Mus musculus with 8 samples.

Results

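Creb3l3 and 4 of its known hepatic target genes, Apoa4, Apoa5, Apoc2 and Fgf21, were described in cultured hepatocytes of mice on different diets. The 5 genes were selected by name from the annotation of the array probes, with earlier results of these arrays known: Creb3l3 was lower and Apoa4 higher after a high fat diet. They were measured by 8 of 45281 probes and are 5 of 20289 named genes. Because that diet contrast chose them, their own diet differences are given as a description, with no test.

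Creb3l3 encodes CREB3L3 (also CREB-H), a transcription factor of liver and small intestine that is made as a membrane protein of the endoplasmic reticulum. It travels to the Golgi, where the site-1 and site-2 proteases cut it, and the released amino-terminal part enters the nucleus and activates genes of triglyceride clearance, fatty acid oxidation and the fasting response. Among its targets, ApoC-II is the cofactor that lipoprotein lipase needs, ApoA-V promotes triglyceride clearance by that lipase, ApoA-IV is a lipid-binding protein of intestinal and hepatic lipoproteins, and FGF21 is a hormone the liver secretes in fasting and nutrient stress. The arrays measured RNA, so neither the membrane-bound nor the cut form of CREB3L3 was seen.

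The hepatocytes came from male C57Bl/6 mice fed normal chow (arrays chow 1, 2, 3 and 5) or a high fat diet (HFD, arrays HFD 8, 10, 11 and 12), 4 arrays per diet, numbered as in the labels. The design text calls them biological replicates. The mice's age, the length of the diets and whether an array held cells of 1 mouse are unknown from the sources used here, and if cells were shared, the p-values measure a spread that may be technical. All cells were plated with EGF (1.5 nM), dexamethasone (400 nM), insulin (100 nM) and 10% serum, and after the insulin was lowered to 10 nM their RNA was taken 24 h later. Both groups were therefore cultured cells under the same high glucocorticoid, insulin and growth factor supply, away from the diet itself.

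The values were the authors' deposited log2 levels, which ran from 7.23 to 14.91 with a median over all probes of 7.51, so a value near 7.5 is close to background. The 8 columns shared 1 distribution. The array chow 3 differed from the rest: over all probes its correlation with each of them was r = 0.946 to 0.952, against 0.989 or more among the other 7. The differences of the 5 genes and the counts over all genes are therefore given with and without it. Values of other genes and counts of lists are those of all 8 arrays unless stated. Of 20289 genes, 820 (4.04%) differed between diets at an adjusted p under 0.05 by limma, 299 higher (1.47%) and 521 lower (2.57%) in HFD; without chow 3 the numbers were 981 (4.84%) and 880 (4.34%). They were 771 higher and 832 lower with array weights. The total dropped to 543, 457, 495 or 447 when HFD 8, 10, 11 or 12 was left out, and the higher genes dropped to 190 when chow 2 was.

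Hepatocyte markers checked the labelled cell type. The secreted liver protein genes Ttr and Serpina1b had mean levels of 14.25 and 14.78 in chow cultures, named here after their values were seen, while the probes of Tat, Fgb and Tdo2 were close to background in both diets. Of 17 measured hepatocyte markers 1 passed, beside 4.04% of all genes. It was the urea cycle gene Cps1, which rose by 0.51 (SE 0.078, adjusted p = 0.0105 by limma). Without chow 3, 2 markers rose, beside 4.84% of all genes, and without chow 5, 1 marker fell, beside 537 of 20289 genes. The list's summed level ran from 16.34 to 16.85 in chow and from 16.69 to 16.97 in HFD.

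Creb3l3 had 1 probe. Its level was 10.09 on chow 1, 9.65 on chow 2, 10.42 on chow 3 and 10.36 on chow 5. In HFD cultures it was 8.30 on HFD 8, 8.51 on HFD 10, 8.47 on HFD 11 and 8.46 on HFD 12. Every HFD array lay below every chow array, with a gap of 1.14 between the nearest arrays, and the HFD arrays lay closer together than the chow arrays. The means were 10.13 ± 0.35 (SD, n = 4) in chow and 8.43 ± 0.09 (SD, n = 4) in HFD, an HFD minus chow difference of -1.69, or 3.24-fold lower in HFD. Of all genes, 19 had a more negative difference. Without chow 3 the difference was -1.60, and leaving out any 1 array gave -1.85 to -1.60. In bulk RNA of this kind, fewer cells expressing a gene and less of its RNA per cell cannot be told apart.

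Apoa4 had 3 probes, and all 3 separated the diets in the opposite direction to Creb3l3. The probe with the highest mean, which stands for the gene, read 12.39, 12.36, 12.43 and 12.87 on chow 1, 2, 3 and 5. On HFD 8, 10, 11 and 12 it read 13.58, 13.73, 13.66 and 13.72. Chow 5 was the highest chow array on every Apoa4 probe, yet it stayed 0.71 below the lowest HFD array on this one. The means were 12.51 ± 0.24 (SD, n = 4) and 13.67 ± 0.07 (SD, n = 4), a difference of 1.16 or 2.23-fold. The second probe gave 1.22, and the third, dimmest probe 1.75, or 3.37-fold. The dimmest probe read 10.47 on chow 3, the lowest chow value, where the second probe read 12.49, above chow 1 and chow 2. Without chow 3 the 3 probes gave differences of 1.13, 1.25 and 1.53. Of all genes, 25 had a larger positive difference than the first probe.

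Apoc2 was measured by 2 probes that gave different pictures on chow 3. The brighter probe read 11.51, 11.54, 9.10 and 11.38 on chow 1, 2, 3 and 5. On HFD 8, 10, 11 and 12 it read 11.95, 11.96, 11.96 and 12.08. All HFD arrays lay above all chow arrays, but chow 3 deviated by -2.38 from the mean of chow 1, 2 and 5. The means were 10.88 ± 1.19 (SD, n = 4) and 11.99 ± 0.06 (SD, n = 4), a difference of 1.11. Without chow 3 the chow mean was 11.48 ± 0.09 (SD over 3 arrays) and the difference 0.51, or 1.43-fold.

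The dimmer Apoc2 probe read 9.57, 9.43, 9.89 and 9.60 on chow 1, 2, 3 and 5, and 9.98, 9.85, 10.19 and 9.97 on HFD 8, 10, 11 and 12. Here chow 3 was the highest chow array, and the groups overlapped because it exceeded HFD 10. The difference was 0.37, or 0.46 without chow 3. With chow 3 left out, the HFD level was 1.43-fold the chow level on the brighter probe and 1.38-fold on the dimmer one.

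**Figure D1:**
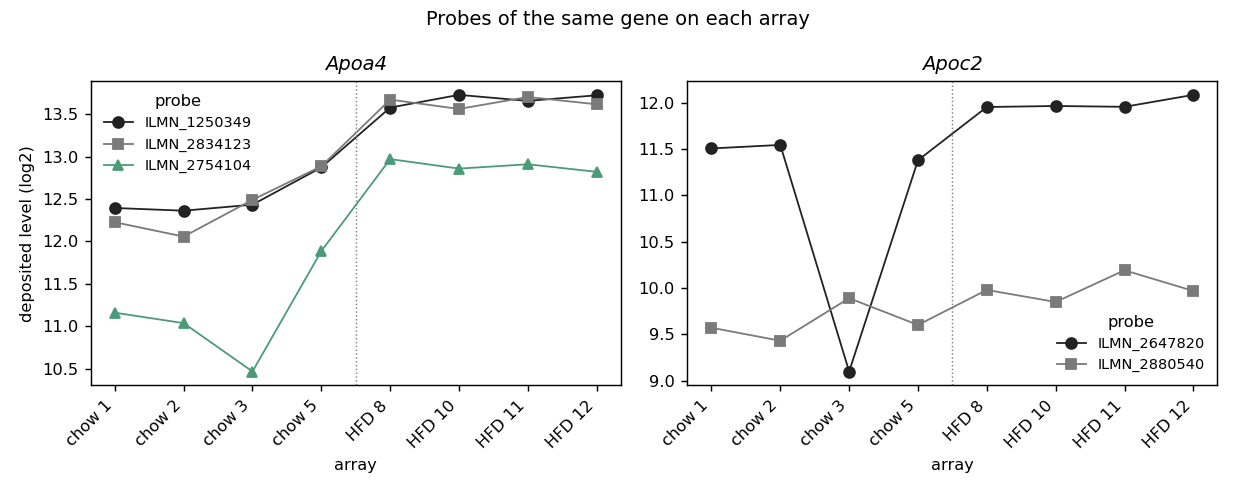
Level of each probe of Apoa4 (left, 3 probes) and Apoc2 (right, 2 probes) on the 8 arrays, on the deposited log2 scale, with a dotted line between the diets. All 3 Apoa4 probes are higher on every HFD array, and on chow 3 the brighter Apoc2 probe drops to 9.10 while the dimmer one reads 9.89, its highest chow value.

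Apoa5 was close to background on every array. Its 1 probe ranged from 7.43 to 7.49 in chow and from 7.49 to 7.52 in HFD, around the median of all probes of 7.51. The means were 7.46 ± 0.02 (SD, n = 4) and 7.51 ± 0.02 (SD, n = 4), and the groups were 0.002 apart, so this probe carried no level from which a change of Apoa5 RNA could be read.

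Fgf21 lay slightly above background. Its 1 probe read 7.65, 7.55, 7.86 and 7.72 on chow 1, 2, 3 and 5, and 7.94, 7.75, 7.91 and 8.00 on HFD 8, 10, 11 and 12. The groups overlapped, since chow 3 exceeded HFD 10. The means were 7.70 ± 0.13 (SD, n = 4) and 7.90 ± 0.11 (SD, n = 4), a difference of 0.21, or 0.26 without chow 3. These levels are close to the floor of the scale.

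In all, the HFD and chow arrays did not overlap for 4 of the 5 genes, with HFD below chow for Creb3l3 and above for Apoa4, Apoc2 and, by 0.002 at background, Apoa5. Such separation was seen in 10.7% of all genes, 4.24% with HFD above and 6.47% with HFD below. The 5 genes were chosen on this contrast, so nothing is read from their share.

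**Figure D2:**
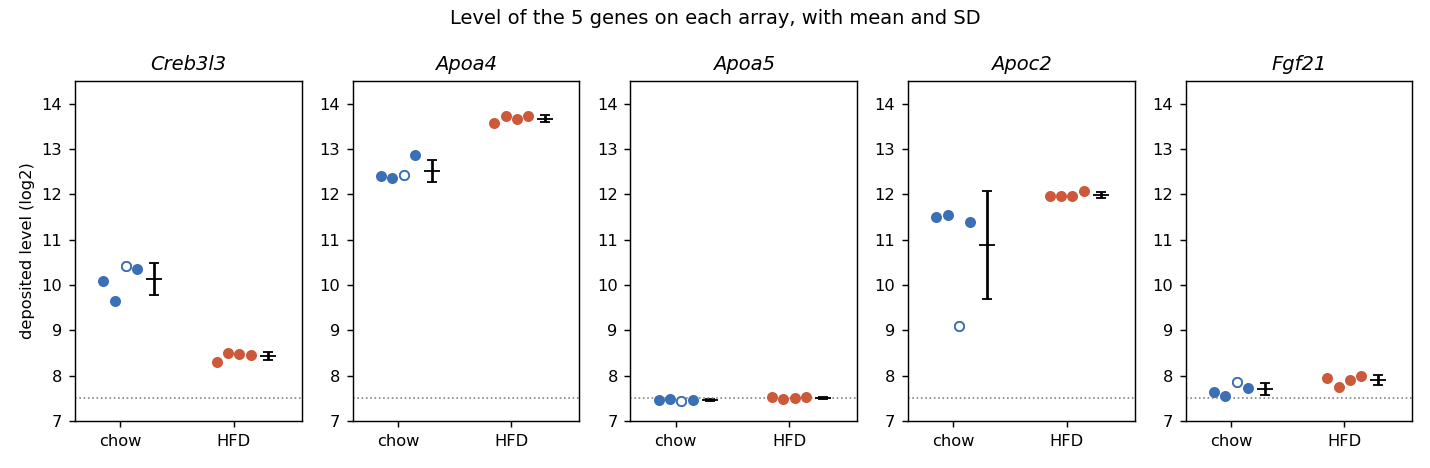
Level of each of the 5 genes on the 8 arrays, on the deposited log2 scale, from the probe with the highest mean. Points are arrays, the open point is chow 3, bars are the mean and SD of 4 arrays, and the dotted line is the median of all probes (7.51). Creb3l3 is lower and Apoa4 higher on every HFD array, Apoc2 has 1 low chow array at 9.10, and Apoa5 and Fgf21 lie near the dotted line.

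The differences were recomputed with arrays left out and with all probes of a gene averaged. No sign changed for the 5 genes. Creb3l3 has a single probe and kept -1.69 with probes averaged. Apoa4 gave 1.38 with its 3 probes averaged, and 1.10 to 1.27 with 1 array left out. Apoc2 ranged from 0.51 without chow 3 to 1.33 without chow 2, and gave 0.74 with its probes averaged.

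**Figure D3:**
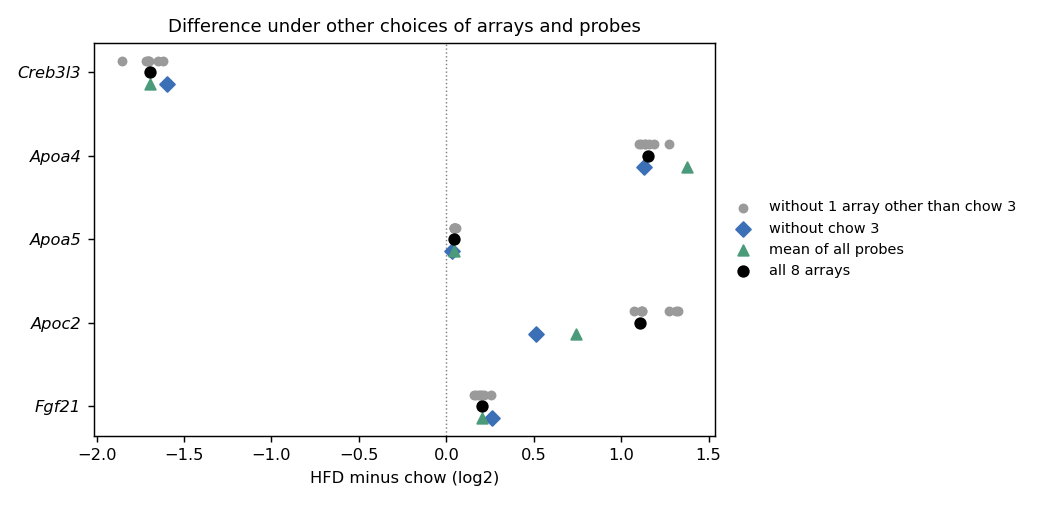
HFD minus chow difference (log2) of each of the 5 genes with all 8 arrays, without chow 3, without each other array, and with all probes of a gene averaged. The Apoc2 value drops from 1.11 to 0.51 without chow 3, while Creb3l3 stays between -1.85 and -1.60.

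The sequences before the gene starts are shown because CREB3L3 binds elements like the cAMP response element (CRE). The 4 genes below are those with a level above background, Fgf21 only slightly. Each is the 250 bases before the outermost annotated start, from RefSeq (GRCm38.p6), written 5′ to 3′ on the gene's strand. Capitals mark 2 short motifs searched on both strands: TGACG, the core of the CRE (seen as CGTCA on the other strand), and ACGTG, a core shared by E-boxes and unfolded-protein-response elements (seen as CACGT on the other strand).
Creb3l3, chr10:81098873-81099122, minus strand: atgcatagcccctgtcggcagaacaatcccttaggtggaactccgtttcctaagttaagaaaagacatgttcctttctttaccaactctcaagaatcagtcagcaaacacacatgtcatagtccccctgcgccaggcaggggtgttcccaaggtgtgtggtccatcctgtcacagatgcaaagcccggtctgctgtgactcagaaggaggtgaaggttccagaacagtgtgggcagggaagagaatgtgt
Apoa4, chr9:46240594-46240843, plus strand: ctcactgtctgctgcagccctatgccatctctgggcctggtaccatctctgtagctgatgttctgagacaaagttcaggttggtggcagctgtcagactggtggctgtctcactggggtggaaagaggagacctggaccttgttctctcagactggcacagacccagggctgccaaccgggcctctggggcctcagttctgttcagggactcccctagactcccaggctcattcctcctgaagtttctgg
Apoc2, chr7:19677942-19678191, minus strand: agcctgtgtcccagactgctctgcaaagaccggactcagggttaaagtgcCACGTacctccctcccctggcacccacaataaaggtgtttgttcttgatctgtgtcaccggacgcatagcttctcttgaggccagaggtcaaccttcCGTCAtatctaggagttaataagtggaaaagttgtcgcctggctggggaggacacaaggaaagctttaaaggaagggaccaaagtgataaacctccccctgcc
Fgf21, chr7:45615491-45615740, minus strand: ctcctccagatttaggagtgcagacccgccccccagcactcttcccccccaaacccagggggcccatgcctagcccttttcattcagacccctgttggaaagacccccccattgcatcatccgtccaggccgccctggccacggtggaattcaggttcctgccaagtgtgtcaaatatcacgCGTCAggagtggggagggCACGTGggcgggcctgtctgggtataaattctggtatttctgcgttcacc

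TGACG was found once in the Apoc2 window, its first base 103 bases before the start, and once in the Fgf21 window, 68 bases before the start. Neither TGACG nor ACGTG was found in the Creb3l3 and Apoa4 windows. ACGTG was present in Apoc2, 200 bases before the start, and in Fgf21, where it forms the palindrome CACGTG 50 bases before the start, and in the Apoa5 window as the same palindrome at 82 bases. Of 27025 promoter windows of the same length, 17.8% held TGACG, 16.5% held ACGTG and 6.04% held CACGTG. The full palindrome TGACGTCA was in 1.6% of windows and in none of the 5. The nuclear receptor core AGGTCA was in 13.8% of windows and, among the 5, in Apoc2 only, 115 bases before the start. A match of so few letters does not show a bound site, and no match says only that these letters are absent from this window. Creb3l3 and Apoa5 each have 2 annotated starts, and the inner ones are not shown.

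The genes that move CREB3L3 along its path were tested next, in the limma fit over all genes. Of 13 measured genes of the CREB3 family and of its transport, cutting and degradation, 2 fell and 0 rose, beside 2.57% lower and 1.47% higher among all genes, with a list median of -0.07 against -0.01 over all genes. Sel1l, which encodes the adaptor of the membrane ubiquitin ligase that degrades misfolded ER proteins, fell by 0.49 (SE 0.090, adjusted p = 0.0246). Surf4, a cargo receptor for export from the ER, fell by 0.47 (SE 0.100, adjusted p = 0.0410). Both lost the threshold without chow 1, chow 2, HFD 10 or HFD 11 (list count 0 each time), and Surf4 also without HFD 8 or HFD 12 (list count 1), with adjusted p up to 0.122 for Surf4. With its probes averaged, Sel1l missed it too (adjusted p = 0.211, list count 1), and its probes ranged from -0.49 to 0.00. The genes that fell in all, 521 with every array, were 290 to 399 without 1 of these arrays and 478 with probes averaged.

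Other family members did not pass the test. These are named for their roles after their values were seen. Creb3 differed by -0.22 (adjusted p = 0.287 by limma) and Creb3l2 by -0.20 (adjusted p = 0.514 by limma), and Creb3l1 and Creb3l4 were near background at 7.46 and 7.56 in chow. Mbtps1, the gene of the site-1 protease, had a difference of 0.67 (adjusted p = 0.449 by limma), the highest of the list. Its HFD and chow arrays overlapped, and without chow 3 it did not pass either. Mbtps2, the gene of the site-2 protease, had a difference of -0.11 (adjusted p = 0.815 by limma).

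Of 14 genes for factors that bind, modify or drive CREB3L3, 1 fell and 0 rose (list median -0.06), beside 2.57% and 1.47% of all genes. With the probes of a gene averaged 1 rose, beside 289 of 20289 genes. It was the oxysterol receptor gene Nr1h3, named after its value was seen. Gsk3b, a protein kinase of insulin and circadian signalling, fell by 0.30 (SE 0.063, adjusted p = 0.0420). It lost the threshold without chow 2, chow 5 or any HFD array, with trend and robust settings and among the brighter genes (adjusted p up to 0.140). Ppara, the fatty acid receptor that acts with CREB3L3 on Fgf21, was near background, at 7.68 ± 0.03 in chow and 7.61 ± 0.05 in HFD (SD, n = 4), a difference of -0.07 (95% confidence interval -0.14 to 0.01, adjusted p = 0.419). Hnf4a, a hepatocyte lineage factor named after its value was seen, was at 11.22 in chow and 11.17 in HFD.

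Few of the other genes that have been reported as CREB3L3 targets passed the test. Of 20 measured, 2 fell and 0 rose, beside 2.57% lower among all genes, and the list median was -0.02. Hamp, which encodes the iron hormone hepcidin, read 13.68, 13.85, 14.21 and 13.87 on the chow arrays in label order and 13.11, 12.95, 13.20 and 13.07 on the HFD arrays. It fell by 0.82 (SE 0.110, adjusted p = 0.00634 by limma), with no overlap of the diets. Igfbp2, an insulin-like growth factor binding protein gene, fell by 0.78 (SE 0.040, adjusted p = 6.82e-05). With its 2 probes averaged, Igfbp2 missed the threshold (adjusted p = 0.158), its probes giving -0.78 and -0.34. Without HFD 8 or without chow 5, 1 gene of the list rose, beside 216 and 272 of 20289 genes. Without chow 3, 3 fell, beside 4.34% of all genes.

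Apoa1 and Apoc3 are listed targets and lie beside Apoa4 and Apoa5 in the same gene cluster. Apoa1, the main protein of high density lipoprotein, was at 14.62 ± 0.06 in chow and 14.61 ± 0.06 in HFD (SD, n = 4), with a difference of -0.02 (95% confidence interval -0.11 to 0.08, adjusted p = 0.937), and lay near the top of the scale, where differences can be compressed. Apoc3, which encodes an inhibitor of triglyceride clearance, was at 13.85 ± 0.16 and 13.83 ± 0.18 (SD, n = 4), with a difference of -0.01 (95% confidence interval -0.26 to 0.24, adjusted p = 0.987).

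Among 15 measured neighbours of the apolipoprotein genes on both clusters, 1 rose and 2 fell (list median -0.01), beside 1.47% and 2.57% of all genes. Nectin2, a cell adhesion gene beside the Apoe cluster, rose by 0.43 (SE 0.051, adjusted p = 0.00358). Apoc1, an apolipoprotein gene next to Apoe, fell by 0.29 (SE 0.059, adjusted p = 0.0367), and Sik3, a kinase gene beside Apoa1, fell by 0.31 (SE 0.066, adjusted p = 0.0407). Apoc1 and Sik3 both lost the threshold without chow 1, chow 2 or any HFD array and with probes averaged (adjusted p up to 0.187 and 0.128), which left 0 neighbours lower. Among all genes, 290 to 399 fell without 1 of these arrays and 478 with probes averaged, against 521. Apoe, the ligand for remnant uptake, was at 13.45 ± 0.58 in chow and 13.74 ± 0.12 in HFD (SD, n = 4, adjusted p = 0.744). Its difference of 0.29 became 0.002 without chow 3, where it read 12.58.

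Lipoprotein lipase is the enzyme that ApoC-II and ApoA-V act on. Of 12 measured genes that control it, 3 fell and 0 rose (list median -0.04), beside 2.57% lower and 1.47% higher among all genes. Those that fell were Apoc1, Sel1l and Angptl4. Angptl4, which encodes a secreted inhibitor of the lipase, was at 12.60 ± 0.11 in chow and 11.90 ± 0.15 in HFD (SD, n = 4) and fell by 0.70 (SE 0.084, adjusted p = 0.00395), with probes at -0.70 and -0.12. The count of genes that fell was 1 when chow 1, chow 2, HFD 10 or HFD 11 was left out or when the probes of a gene were averaged. In those fits, in that order, 399, 367, 292, 306 and 478 genes fell in all, against 521. Without chow 3, 1 gene of the list rose, beside 4.84% of all genes.

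FGF21 acts on FGF receptors with the co-receptor beta-klotho. For these receptors and for factors that induce or inactivate FGF21, 15 genes were measured. Of these 1 rose and 2 fell (list median -0.06), beside 1.47% and 2.57% of all genes. Nr1h4, the gene of the bile acid receptor FXR, was at 10.71 ± 0.17 in chow and 9.87 ± 0.10 in HFD (SD, n = 4) and fell by 0.84 (SE 0.089, adjusted p = 0.00205). Mlxipl, which encodes the glucose-responsive factor ChREBP, fell by 0.67 (SE 0.070, adjusted p = 0.00192). Rarb, a retinoic acid receptor gene, rose by 0.35 (SE 0.054, adjusted p = 0.0114) from 7.44, near background, with probes from 0.05 to 0.35. Klb, the gene of beta-klotho, was at background in both diets, with a difference of 0.07 (95% confidence interval -0.01 to 0.15, adjusted p = 0.491).

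Targets of PPARalpha, the partner of CREB3L3 in fatty acid oxidation, gave 1 riser and 2 fallers of 20 measured (list median -0.03). Among all genes 1.47% rose and 2.57% fell. Aldh3a2, a fatty aldehyde dehydrogenase gene, rose by 0.77 (SE 0.115, adjusted p = 0.00988), with probes from -0.02 to 0.77. Acadm, which encodes medium-chain acyl-CoA dehydrogenase, fell by 0.34 (SE 0.059, adjusted p = 0.0189), and the acyl-CoA thioesterase gene Acot1 fell by 0.36 (SE 0.059, adjusted p = 0.0145). Acadm lost the threshold without HFD 11 or HFD 12 (adjusted p up to 0.0689), and Acot1 without HFD 10, 11 or 12 and with its probes averaged (-0.10, adjusted p = 0.109). The list count of genes that fell was 1 without HFD 10 and 0 without HFD 11 or HFD 12. Among all genes, 292, 306 and 290 fell in these fits, against 521 with every array. Without chow 3, 2 rose and 3 fell, beside 4.84% and 4.34% of all genes.

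ER stress is known to release CREB3L3 from the membrane, so genes induced by ER stress were counted on the same arrays. Of 19 measured ER stress target genes, 4 fell and 0 rose, beside 2.57% lower and 1.47% higher among all genes, and the list median was -0.30. Creld2, a secreted protein gene induced by ER stress, was at 11.64 ± 0.54 in chow and 10.31 ± 0.11 in HFD (SD, n = 4) and fell by 1.32 (SE 0.241, adjusted p = 0.0229). Pdia4, a protein disulfide isomerase, fell by 0.88 (SE 0.073, adjusted p = 0.000759). The BiP gene Hspa5, for the main ER chaperone, fell by 0.62 (SE 0.121, adjusted p = 0.0299), and the co-chaperone gene Dnajb9 fell by 0.49 (SE 0.079, adjusted p = 0.0139). Creld2 lost the threshold when chow 2 or 1 of the HFD arrays was left out (adjusted p up to 0.0840). Hspa5 did so for those and for chow 1 (adjusted p up to 0.0966), and Dnajb9 for HFD 10 or HFD 11 (adjusted p up to 0.0553). The count fell to 2 without chow 2, HFD 8 or HFD 12 and to 1 without HFD 10 or HFD 11. In these 5 fits, in that order, 367, 327, 290, 292 and 306 genes fell in all, against 521 with every array. The ER stress count was 7 without chow 3, where 4.34% of all genes fell, and 8 with array weights, where 832 genes fell in all.

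Over the 8 pathway lists, 117 different genes were measured, of which 3 rose and 16 fell, where 1.47% of all genes rose and 2.57% fell. Without chow 3 the lists gave 5 and 21, and all genes 4.84% and 4.34%. Leaving out chow 2 or HFD 8 gave 10 that fell, HFD 10 gave 7, HFD 11 gave 6 and HFD 12 gave 8. The genes that fell in all also dropped, from 521 to 367 without chow 2. Without HFD 8, 10, 11 or 12 they were 327, 292, 306 and 290.

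**Figure D4:**
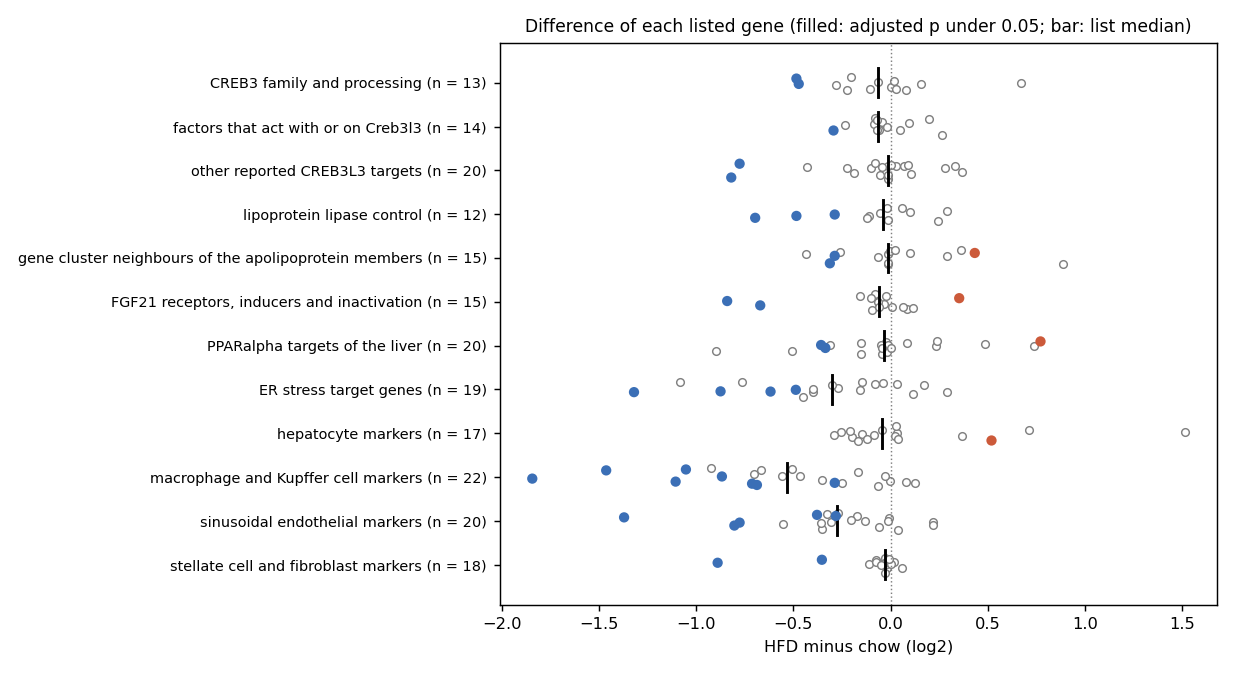
HFD minus chow difference (log2) of every measured gene of the 8 pathway lists and 4 cell marker lists. Filled points passed limma at an adjusted p under 0.05 (red higher, blue lower in HFD), open points did not, and the black bar is the list median. Most pathway lists centre near 0, the ER stress list at -0.30 and the macrophage list at -0.53.

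Some markers of other liver cells were lower in the HFD cultures. Among the markers of macrophages and Kupffer cells, 22 were measured, of which 8 fell and 0 rose (list median -0.53), beside 2.57% lower among all genes. The 8 were Adgre1, Cd68, Csf1r, Fcer1g, Laptm5, C1qb, Cd14 and Ctss. The 14 that did not pass included Clec4f, Cd5l, Vsig4, Timd4 and Marco. Without chow 3, 12 fell, beside 4.34% of all genes. With array weights 15 fell, and the genes that fell in all went from 521 to 832. Fcer1g, an Fc receptor chain, fell by 1.84 (SE 0.125, adjusted p = 0.000283), Laptm5, a lysosomal membrane protein gene, fell by 1.46 (SE 0.117, adjusted p = 0.000593) and the surface receptor gene Adgre1 fell by 1.11 (SE 0.077, adjusted p = 0.000319, probes from -1.11 to -0.11). Adgre1 was at 7.63 in HFD, near background, which can limit the size of its fall. The summed level of the list was 13.46 to 13.60 in chow and 12.62 to 12.85 in HFD. Its median chow level was 8.34, and 3 of the 22 genes lay under the median of all probes in chow. Background therefore makes up part of these sums. The part of macrophages and Kupffer cells in the Creb3l3 and Apoa4 differences was not tested.

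Of 20 sinusoidal endothelial markers 5 fell, beside 2.57% lower among all genes, with a list median of -0.28. Without chow 3, 12 fell and 1 rose, beside 4.34% lower and 4.84% higher among all genes. The list's summed levels were 12.43 to 12.67 in chow and 12.14 to 12.24 in HFD. Its median chow level was only 7.94, so background makes up much of these sums. Fcgr2b, an Fc receptor, fell by 1.37 (adjusted p = 0.000593 by limma, probes from -1.37 to 0.02), Lyve1 fell by 0.80 (adjusted p = 0.00817) and the cadherin gene Cdh5 fell by 0.78 (adjusted p = 0.0402). Their HFD means of 8.01, 7.76 and 7.71 were close to the floor of the scale, which can limit the size of a fall. The endothelial count was 2 without chow 2 or any HFD array, and Cdh5 lost the threshold without those arrays or chow 5. Without chow 2, 367 genes fell in all, and without 1 HFD array 290 to 327, against 521 with every array. Of 18 stellate cell and fibroblast markers 2 fell (list median -0.03), beside 2.57% lower among all genes. Sparc fell by 0.89 (adjusted p = 0.00201 by limma) and Bgn by 0.35 (adjusted p = 0.0383 by limma), to 7.71 and 7.69 in HFD, near background. The list's summed levels were 11.80 to 11.81 in chow and 11.67 to 11.69 in HFD. Its median chow level was 7.50, and 9 of the 18 genes lay under the median of all probes in chow. These sums are therefore largely background. Bgn lost the threshold when chow 1, chow 2 or 1 of the HFD arrays was left out (adjusted p up to 0.121).

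The genes most like Creb3l3 over the 8 arrays were sought by the root mean square (RMS) difference between profiles after each gene's own mean was subtracted. The closest was Erfe, which encodes erythroferrone, a hormone known from red blood cell precursors that lowers hepcidin, at an RMS difference of 0.09. It read 9.79, 9.39, 9.92 and 10.05 on chow 1, 2, 3 and 5, and 7.85, 8.05, 8.18 and 8.03 on HFD 8, 10, 11 and 12. Like Creb3l3, Erfe was lowest on chow 2 among the chow arrays and on HFD 8 among the HFD arrays. Erfe was picked for its closeness on these same arrays, so the shared low values are no separate evidence of a link. A second Erfe probe differed by 0.01.

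After Erfe came Fcer1g (0.18), the keratin gene Krt20 (0.21), Esm1, which encodes the endothelial proteoglycan endocan (0.22), and Clec4d, a lectin receptor gene of myeloid cells (0.22). Krt20 too has a second probe, which differed by -0.01. Without chow 3, 3 of these 5 were again among the 5 closest, with Erfe first.

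For Apoa4 the closest profiles were those of the integrin gene Itga3 (RMS difference 0.14), the neuritin gene Nrn1 (0.18), the trefoil factor gene Tff3 (0.18), Baiap2l1, which encodes an actin-binding adaptor (0.20), and the zinc finger gene Rlf (0.20). Itga3 was highest on chow 5 among the chow arrays, as was Apoa4, at 11.37 against 10.78 to 10.86 on the other chow arrays. The order of the HFD arrays was not shared: Apoa4 was lowest on HFD 8 (13.58) and Itga3 on HFD 12 (12.09). On chow 3 Itga3 had its lowest chow value, while Apoa4 had its lowest on chow 2. Without chow 3, 2 of these 5 were again among the 5 closest, with Itga3 first. The likeness is a description over 8 arrays that rests largely on the diet difference. Because the genes were picked by it on these same arrays, a shared high or low value within a diet is no separate evidence.

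**Figure D5:**
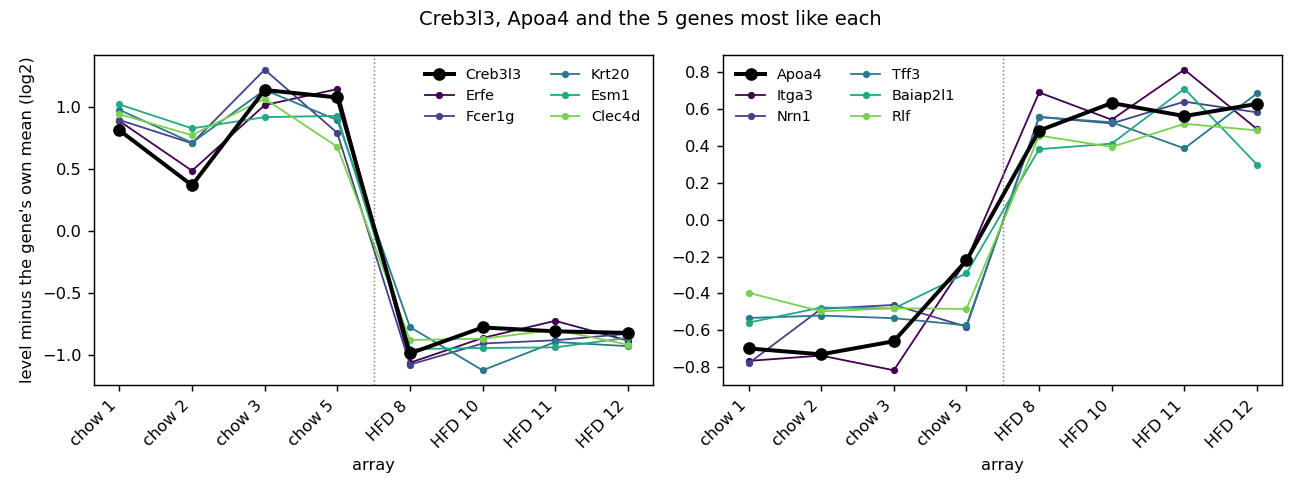
Level minus the gene's own mean (log2) on the 8 arrays for Creb3l3 (left, black) and Apoa4 (right, black) and the 5 genes with the smallest RMS difference from each. The dotted line separates the diets. The genes were picked for likeness on these same arrays, so shared dips or highs are no separate evidence. Erfe shares with Creb3l3 the dip on chow 2. Itga3 shares with Apoa4 the high value on chow 5, but not the order of the HFD arrays.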

How the data were processed

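RNA of 4 chow and 4 HFD hepatocyte cultures was measured on 1-colour Illumina bead arrays. The authors' tool was lumi, per the submitters' processing notes, and neither version nor settings are named there. The unit of the deposited values was read from them as log2; whether it is a plain or a variance-stabilised log2 is unknown, and no genome build is named. The deposited log2 columns differed from their mean sorted distribution by at most 0.0026, so they were not normalized again, and a shift common to all genes of an array cannot be seen. No sample column was left unused (0 columns).

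Of 45281 probes, 35784 were given 1 symbol, 0 several and 9497 none. Names were updated through a table of mouse genes (GRCm38.p6, names only), by gene number for 28620 probes, accession for 2637, symbol for 2128 and older symbol for 2343, while 56 kept the annotation's symbol. A gene is its probe with the highest mean over 8 arrays. HFD and chow were compared over 20289 genes in limma 3.58.1 (R 4.3.3; lmFit and eBayes, 2-sided, no covariate, Benjamini-Hochberg over all genes, threshold 0.05), tested on simulated data. The number of arrays limits the precision. Folds are 2 to the power of the log2 difference.

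The 5 genes and the 12 lists (216 memberships, 202 genes, 192 measured) were chosen with earlier results of these data known; for G6pc1 and Bmal1 the array's older symbols were used. Named are the 5 genes, up to 6 called genes with the largest difference of each pathway list and up to 3 of each marker list, 6 fixed genes, the 5 genes most like Creb3l3 and Apoa4 (placeholder symbols passed over), and a few marked in the text as picked with their values known. A list's summed level is the log2 of its summed linear values. Figures were drawn with matplotlib 3.10.9.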

Additional observations from a re-analysis of the deposited data

Results flagged for a closer look

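In groups of 4 arrays, a value was taken to stand apart when its gap to the nearest other array, as a share of the group's range, exceeded Dixon's 95% critical value. Of 100 groups examined, 11 held such a value, where chance gives about 1 in 20. Among the probes of the 5 genes these were Apoa4 on chow 5 (12.87, high, first probe), and the brighter Apoc2 probe on chow 3 (9.10, low) and on HFD 12 (12.08, high, only 0.12 above the next array). The other Apoc2 probe read 9.89 on chow 3.

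Among the other named genes, Apoe was low on chow 3 (12.58). On chow 1, Cps1 (8.18) and Gsk3b (9.02) were low and Rlf (9.66) was high. On chow 5, Itga3 (11.37) was high and Lyve1 (8.21) low. In HFD, Esm1 was high on HFD 12 (8.84) and Surf4 low on HFD 10 (10.58).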

How the results depend on the processing

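The 5 genes kept the sign of their difference under every array left out, a repeated quantile normalization and averaged probes. Averaging moved Apoa4 from 1.16 to 1.38. The number of genes that differed (820) was 1603 with array weights (771 higher, 832 lower) and ran from 447 to 1861 with 1 array left out (157 to 981 higher, 290 to 880 lower). Pathway genes ran from 3 to 5 higher and from 6 to 21 lower with 1 array left out. Of 583 recomputed differences of 42 other named genes, 509 kept direction and side of the threshold, 67 lost the call and 7 changed sign. The sign changes were all of Apoa1 (-0.043 to 0.005 with 1 array left out) and Apoc3 (-0.086 to 0.073 with 1 array left out, 0.012 with array weights), neither of which passed in any alternative. The causes were not tested, beyond fewer arrays where 1 was left out. Of the genes most like Creb3l3 and Apoa4, 3 and 2 of 5 recurred without chow 3, an alternative chosen after seeing the data. No paired analysis was possible because the groups share no replicate number in the labels. Levels near 7.5 limit what can be seen of Apoa5, Fgf21, Ppara and Klb.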

Other observations

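The disagreement of the Apoc2 probes on chow 3 was set against other genes. For 2267 genes with at least 2 probes above the upper quartile of all probes, the deviation of the 2 brightest probes from the other arrays of the same diet (chow 3 left out of that mean) was compared. On chow 3 the 2 probes deviated differently by more than 1 on the log2 scale in 410 genes (18.1%), with a median disagreement of 0.29. On chow 1, 2 and 5 this was seen in 0 genes, with medians of 0.10 to 0.14, and on the HFD arrays in 0 to 2 genes. The Apoc2 pair, with deviations of -2.38 and 0.36, is among the 410, and the brighter 2 Apoa4 probes, at -0.11 and 0.10, are not. The cause was not tested.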
